A study of Homo sapiens with 2 samples.

Results

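The proteasome is the protease complex that degrades proteins tagged with ubiquitin in the cytosol and nucleus. Its 20S core is a barrel of outer rings of alpha subunits (PSMA genes) and inner rings of beta subunits (PSMB genes), of which PSMB5, PSMB6 and PSMB7 carry the peptidase sites. The 19S particle caps the barrel; its PSMC ATPases unfold substrates, and its PSMD subunits bind ubiquitin, remove it and hold the lid together. Cancer cells depend on the complex, and inhibitors of PSMB5 are used as drugs against myeloma.

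The genes described here were taken by name from the array: all symbols made of PSM, a letter from A to G and a number, without PSMB8, PSMB9, PSMB10, PSME1 and PSME2, which interferon induces. They came to 38 of the 30484 gene names on the array and had 58 probes, 23 genes with 1 probe and 15 with more. The rule did not use their values. RNA came from SAS cells, an established line from a human squamous carcinoma of the tongue, and from eSAS cells, the population left after SAS cells had gone through 5 rounds in which spheroids held back by a mesh were kept. In these rounds the cells grew on low-adhesion plates in medium with epidermal growth factor, basic fibroblast growth factor and B-27. The spheroids were then dispersed with an enzyme solution and a needle. The methods also describe a step from single cells to establish a line, and whether the arrayed eSAS cells passed it is not stated. No other treatment is named for the arrayed cells, and RNA was taken in the logarithmic phase of growth. Each population was measured on 1 one-colour array, so there is no replicate and nothing could be tested.

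The processed signal is the brightness of a spot after background and spatial correction by the scanner software, in arbitrary units. Before the arrays were compared, each signal was divided by the 75th percentile of its own array (1242 for SAS, 1196 for eSAS), and the ratios are log2 values of eSAS over SAS. The software called 69.4% of the SAS spots and 67.5% of the eSAS spots well above background. Genes are counted as different here when they were at least 25% higher or at least 20% lower in eSAS, which are steps of equal size on the log2 scale. Spots of 1 probe printed several times on an array differed in their log2 ratio with an SD of 0.08 (211 probes), and the software's own error for a ratio was 0.20 for most proteasome probes; both are technical and leave out the variation between cultures. All 7 squamous epithelium markers looked up were measured on both arrays and were at least 20% lower in eSAS. They ran from KRT14 at -3.90 (probes at -6.58 and -1.23) to TP73L, the array's name for the basal factor p63, at -0.40. Over all genes 50.2% were lower and 11.9% at least 20% lower. Among these markers KRT6A was dim (46.9 in SAS, 32.7 in eSAS). PTPRC, PECAM1, COL1A1 and DCN, which mark leukocytes, endothelium and fibroblasts, had no probe that was well above background on both arrays. COL1A1 was called well above background at most of its spots on the SAS array, at a dim signal of 15.2, and at none on the eSAS array. The part of the lower squamous markers in the values below was not tested. In bulk RNA, fewer cells of a kind and less RNA per cell cannot be told apart.

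Proteasome genes differed little between SAS and eSAS cells. Of the 38 genes, 37 had at least 1 probe well above background on both arrays, and the median of their log2 ratios was -0.03, beside a median of -0.00 over all 19467 genes measured. None was at least 25% higher in eSAS, where 9.17% of all genes were, and 2 were at least 20% lower, PSMD10 and PSMB7, where 11.9% of all genes were. None differed 2-fold in either direction, against 1.01% of all genes higher and 1.37% lower. The spread of the ratios differs with brightness. Among the 8292 genes whose mean signal lay between those of the dimmest and the brightest proteasome gene, 4.38% passed the upper limit and 7.72% the lower one. Inside that range the genes were not matched to the members in brightness, so brightness may still differ between them. The SD of the log2 ratios was 0.15 over the proteasome genes, 0.26 over the genes of that signal range and 0.37 over all genes. Without PSMD10 the SD of the members was 0.10, but the other sets kept their extreme genes. The median of the absolute log2 ratios, with no gene left out, was 0.06 over the proteasome genes. It was 0.10 over the genes of that signal range and 0.14 over all genes. Of the 37 genes, 25 (67.6%) lay within 0.1 of zero on the log2 scale, as did 49.2% of the genes in the same signal range. The direction was lower in eSAS for 24 genes (64.9%) and higher for 13. Over all genes 50.2% were lower, and in the same signal range 51.4%. Centring the arrays on their medians in place of the 75th percentile moved every gene alike, to a median of 0.01 for the members and 0.03 for all genes, and the difference between these medians stayed at -0.03. Most members then lay above zero, so counts above or below zero, here and further on, depend on the scaling.

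**Figure D1:**
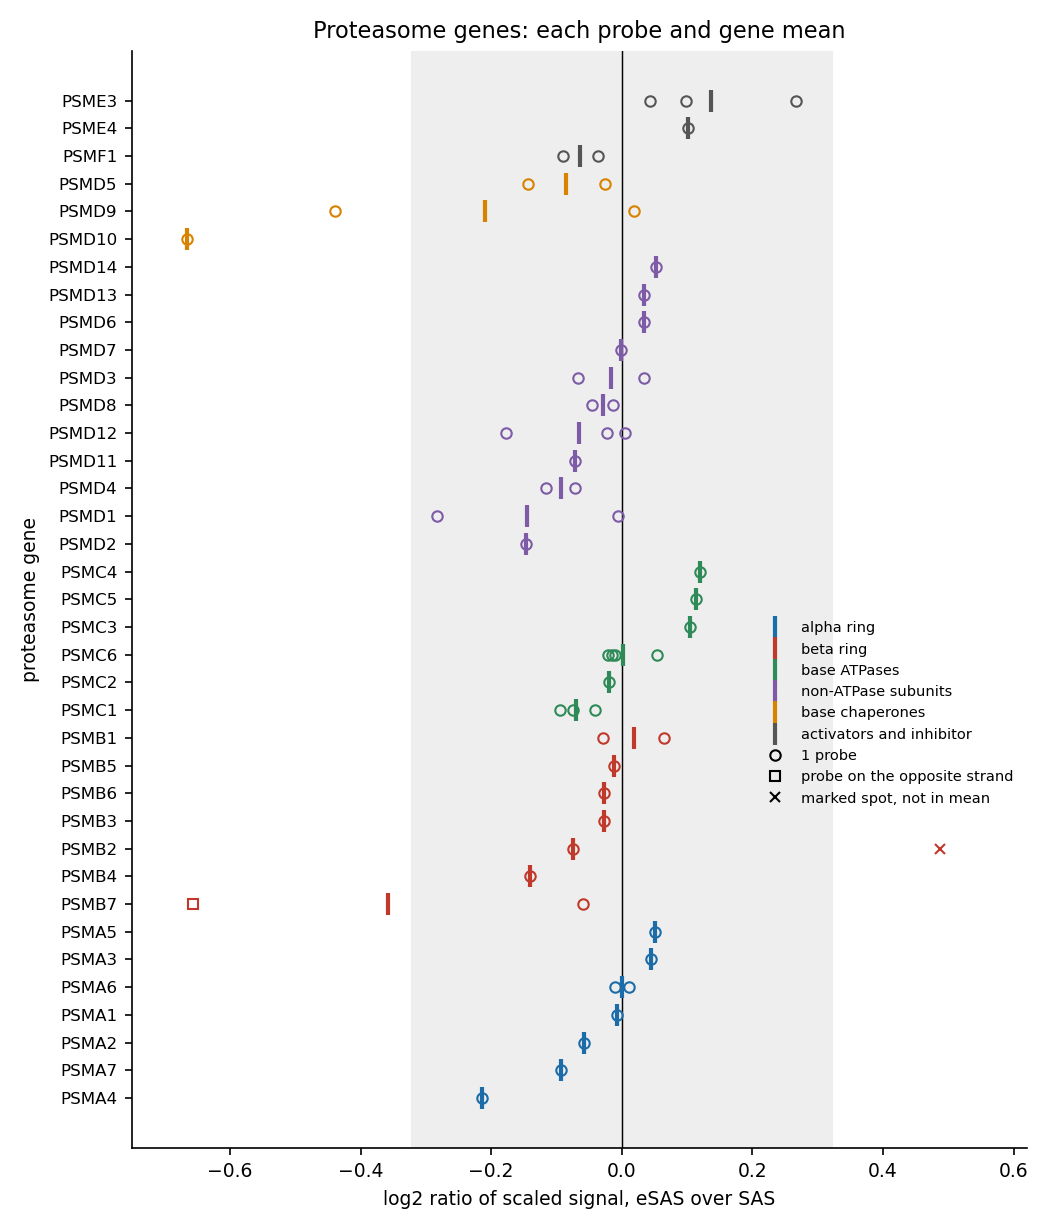
Log2 ratios of scaled signal, eSAS over SAS, for the 37 proteasome genes measured on both arrays; open symbols are single probes, vertical ticks the mean of a gene's probes, colours the role in the complex, and the grey band spans 20% lower to 25% higher. Only the means of PSMD10 (-0.67) and PSMB7 (-0.36) lie outside the band, and the PSMB7 probes stand apart from each other.

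In the alpha ring, which gates the entry of the core, the 7 measured genes had a median log2 ratio of -0.01, from PSMA4 at -0.21 to PSMA5 at 0.05. PSMA5 had a signal of 33895 in SAS and 33806 in eSAS, and PSMA6, read by 2 probes, had 53930 against 51586 and 62750 against 60914. PSMA4 went from 16203 to 13454, 1.16-fold lower after scaling, which is the largest difference in this ring and close to the software's error of 0.20. PSMA3 was at 0.05, PSMA1 at -0.01, PSMA2 at -0.06 and PSMA7 at -0.09, each on a single probe with a signal over 20000 on both arrays. PSMA8, the testis form of PSMA7, was not well above background on either array, with signals of 3.31 and 3.87. The beta ring had a median of -0.03 over 7 genes, and 6 of them were below zero. The signal of PSMB5, the chymotrypsin-like subunit that proteasome inhibitors bind, was 34040 in SAS and 32523 in eSAS, a log2 ratio of -0.01. PSMB6, the caspase-like subunit, read 36157 and 34185, a log2 ratio of -0.03. Of the beta subunits without a peptidase site, PSMB4 went from 50962 to 44519 (-0.14), PSMB3 was at -0.03, and PSMB1 had ratios of -0.03 and 0.06 at its probes.

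PSMB7, the trypsin-like subunit, was read by 2 probes that disagreed. The probe from the RefSeq transcript lies on chromosome 9 of hg18 from 126155712 to 126155771, and its signal was 41616 in SAS and 38456 in eSAS, a log2 ratio of -0.06. The other probe, designed on the cDNA AK056654, lies from 126160513 to 126160572, and its signal was 177 in SAS and 108 in eSAS, a log2 ratio of -0.66. Its coordinates run in ascending order while those of the RefSeq probe run in descending order, so it reads the strand opposite to PSMB7. Of the 58 proteasome probes it was the 1 oriented against its gene, as were 0.836% of the 27169 probes on the array with a known gene strand. With that probe left out, a choice made after the values were seen, PSMB7 stood at -0.06 and the genes at least 20% lower came to 1, PSMD10.

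PSMB2 carried the 1 proteasome spot that the software marked. Its probe in row 454 of the array read 11582 in SAS and 15642 in eSAS, a log2 ratio of 0.49, and its pixels on the SAS array varied with a coefficient of variation of 0.487. The 8 adjacent spots, which carry probes for other transcripts, had a median log2 ratio of 0.46. The other PSMB2 probe, in row 475, read 11003 and 10057 (-0.08) and is the one used. In all, 7 proteasome probes of 6 genes lay in rows 450 to 510. Without these rows 36 genes were measured, the median was -0.02, PSMD9 moved from -0.21 to -0.44, since its bright probe lies there, and the genes at least 20% lower came to 3.

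**Figure D2:**
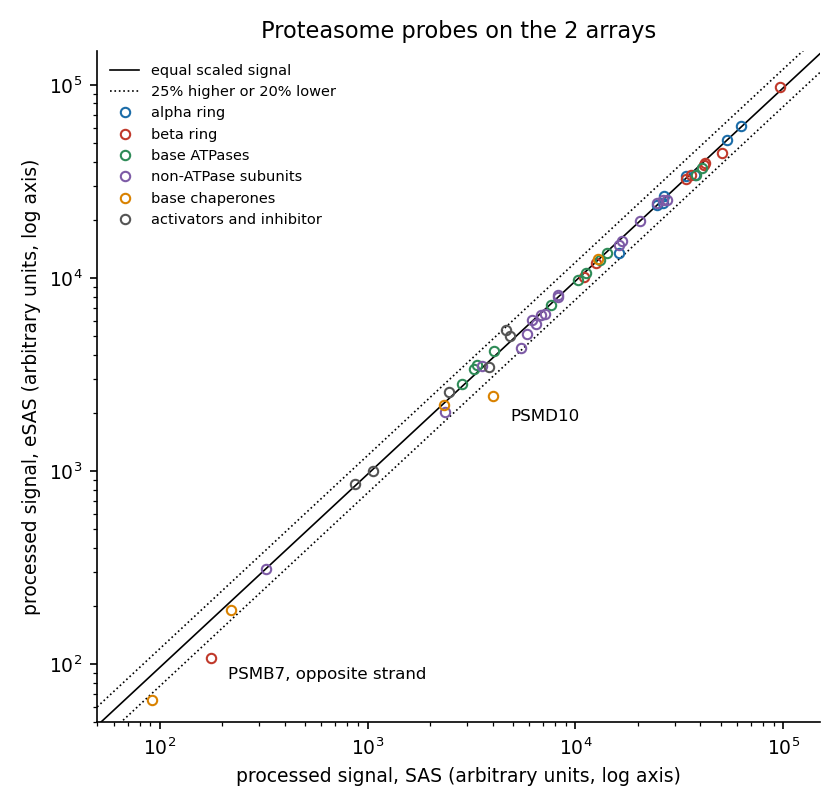
Processed signal of each proteasome probe on the SAS array (horizontal, arbitrary units, log axis) and on the eSAS array (vertical, arbitrary units, log axis), coloured by role; the solid line marks equal signal after scaling and the dotted lines 25% higher and 20% lower. The probes follow the solid line from about the dimmest to the brightest, with PSMD10, the opposite-strand PSMB7 probe and the dim PSMD9 probe below the lower dotted line.

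Of the 6 ATPases of the base, 4 lay above zero, and their median was 0.05. PSMC4 (3366 in SAS, 3523 in eSAS), PSMC5 (3261, 3396) and PSMC3 (4045, 4188) had log2 ratios of 0.12, 0.11 and 0.10. PSMC2 was at -0.02. PSMC1 was at -0.07 over 3 probes (SD 0.03), the one in row 461 reading 13169 and 12323. PSMC6 was at 0.00 over 4 probes (SD 0.04), the one in row 485 reading 10259 and 9774. The 11 non-ATPase subunits had a median of -0.03, from PSMD2 at -0.15 to PSMD14 at 0.05. PSMD14, the deubiquitinase of the lid, read 24613 and 24576, and its partner PSMD7 read 20495 and 19721 (-0.00). PSMD4, a ubiquitin receptor, had probes at -0.12 and -0.07. Of the other lid subunits, PSMD6 and PSMD13 were at 0.03, PSMD3 at -0.02, PSMD8 at -0.03, PSMD12 at -0.06 and PSMD11 at -0.07. PSMD2 and PSMD1 are the scaffold of the base. PSMD2 went from 5856 to 5097, and PSMD1 was at -0.14 as the mean of a probe at -0.01 (26438, 25360) and one at -0.28 (5487, 4341).

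The activators open the core without ATP. PSME3, the nuclear activator PA28 gamma, had the highest value of the members and was 1.10-fold higher as the mean of 3 probes, which read 4647 and 5385 (0.27), 4833 and 4981 (0.10), and 866 and 859 (0.04). PSME4, the activator PA200, read 2480 and 2560 on its only probe (0.10). PSMF1, an inhibitor of the core in vitro, had probes at -0.09 and -0.04. Each of these lies inside the software's error except the first PSME3 probe.

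The base chaperones, which guide the ATPases into a ring and leave before the particle is finished, had 3 values below zero: PSMD5 at -0.08, PSMD9 at -0.21 and PSMD10 at -0.67. PSMD9 was read by a bright probe at 0.02 (12806, 12499) and a dim one at -0.44 (92.1, 65.4), and PSMD5 by probes at -0.03 (2335, 2209) and -0.14 (220, 192). The fourth chaperone of the base, PAAF1, was not found by that name on the array.

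PSMD10, also called gankyrin, binds the ATPase PSMC4 during assembly and is known as an oncoprotein that promotes the loss of RB1 and p53. Its signal was 4035 in SAS and 2449 in eSAS, 1.59-fold lower. It had 1 probe, on chromosome X of hg18 from 107214806 to 107214865. The spot was unmarked on both arrays, the median pixels read 4191 and 2446, and the 8 adjacent spots had a median log2 ratio of -0.06. No other proteasome gene with a single probe passed either limit. In 15 of 17 other ways of processing the values, PSMD10 was the lowest of the members. The exceptions are those that set each gene against its own chromosome. Many of the 15 could hardly change this rank. The deposited series table held the same values, and leaving out the scaling or centring on medians shifted all genes alike. The settings on filters, marked spots, rows, probe choice and strand left its 1 probe at -0.67.

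PSMD10 is also the 1 proteasome gene on the X chromosome, and X-linked genes as a whole were lower in eSAS. This was seen after the values of PSMD10. Over 633 X-linked genes the median log2 ratio was -0.48 (quartiles -0.71 and -0.11), and 62.7% of them were at least 20% lower. Of these genes, 184 (29.1%) lay below PSMD10, whereas 548 (2.94%) of 18661 autosomal genes did. Chromosome 13 also stood apart, with a median of -0.31 over 344 genes, and holds no proteasome gene. The medians of the other 21 autosomes lay between -0.05 and 0.03. Relative to the X median, PSMD10 was at -0.19. Of the 36 proteasome genes on the other autosomes, 1 was at least 20% lower (PSMB7), where 9.43% of 18317 genes there were.

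**Figure D3:**
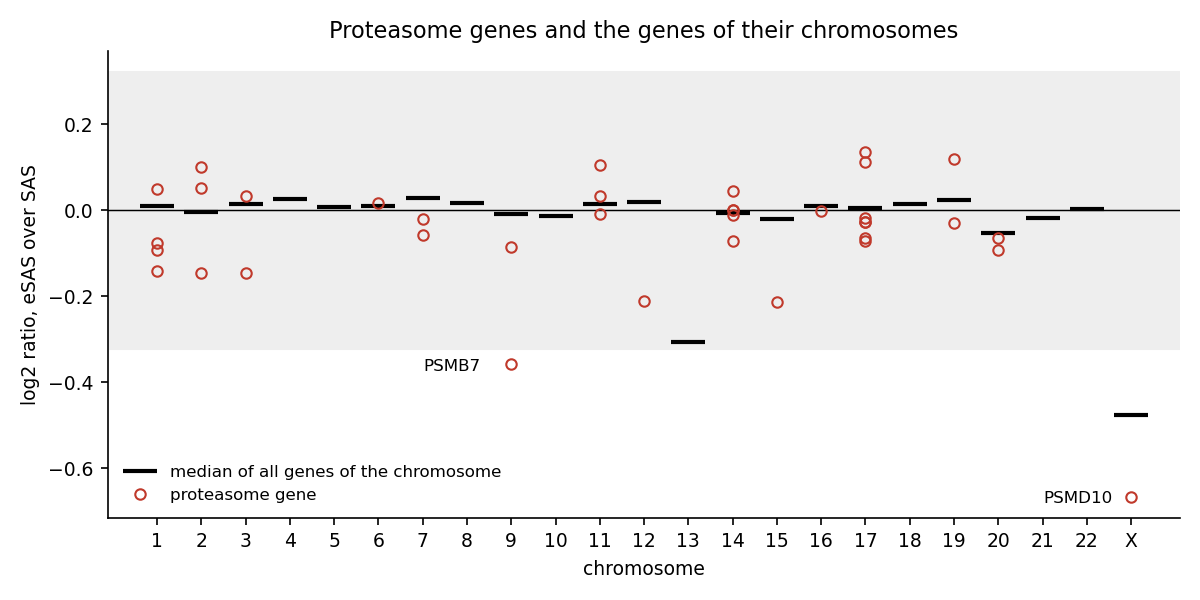
Log2 ratio, eSAS over SAS, of each proteasome gene (circles) on its chromosome, with the median of all measured genes of that chromosome (bars); the grey band spans 20% lower to 25% higher. The medians of chromosomes 13 (-0.31) and X (-0.48) lie below the others, and PSMD10 lies at -0.67 on X.

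The genes next to PSMD10 were lower too, as X-linked genes were in general. Within 1 Mb on either side 12 other array genes were measured, with a median log2 ratio of -0.54. Of these, 8 were at least 20% lower and none 25% higher. Over all X-linked genes the median was -0.48, 62.7% were at least 20% lower and 3.00% at least 25% higher. The nearest, VSIG1 and ATG4A, were at -0.62 and -0.67, with signals of 36.0 and 22.6 for VSIG1 and of 477 and 288 for ATG4A, an autophagy protease. VSIG1 was dim, since the lowest signals called well above background were 12.8 in SAS and 15.2 in eSAS. MID2 went from 811 to 511 and PRPS1, an enzyme of nucleotide synthesis, from 7067 to 4919. The collagen genes COL4A6 and COL4A5 were at -1.14 and -0.90. The 4 that were not 20% lower are listed on the array under LOC numbers or the name of the probe, and lay from -0.16 to 0.09. For the other 36 proteasome genes, the median of the genes within 1 Mb lay between -0.10 (PSMA4) and 0.30 (PSMD14).

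**Figure D4:**
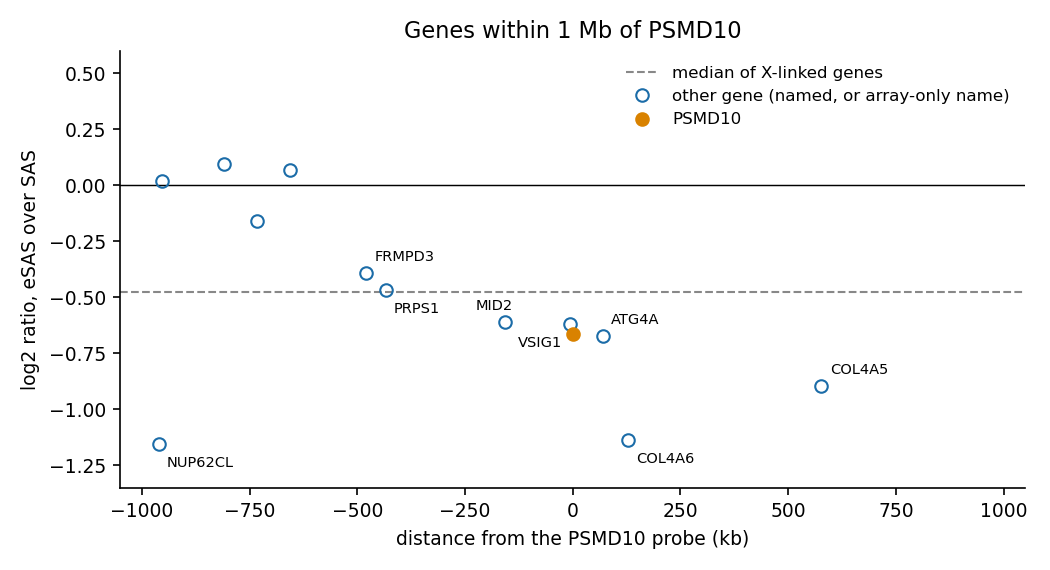
Log2 ratio, eSAS over SAS, of PSMD10 (filled) and of the 12 other array genes measured within 1 Mb (open), against the distance from the PSMD10 probe in kb; the dashed line is the median of X-linked genes. PSMD10 (-0.67) lies beside VSIG1 (-0.62) and ATG4A (-0.67).

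The promoter of PSMD10 is shown because it is the member that differed most. The 250 bases before its start site in RefSeq are chrX:108091543-108091792 of GRCh38.p14, minus strand, written 5′ to 3′ on the strand of the gene, and the capitals mark its 1 CCAAT motif, read on the opposite strand.
PSMD10: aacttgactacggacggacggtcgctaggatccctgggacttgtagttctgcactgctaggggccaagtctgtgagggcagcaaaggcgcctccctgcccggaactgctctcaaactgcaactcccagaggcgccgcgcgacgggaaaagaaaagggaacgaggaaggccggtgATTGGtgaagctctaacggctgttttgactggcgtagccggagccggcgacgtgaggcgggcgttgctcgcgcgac

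RefSeq promoter windows, from 250 bases before to 50 after a start site, were found for 33 of the 38 genes; PSMA7, PSMB1, PSMB6, PSMB7 and PSMD4 were not in the table. The factor NFE2L1 raises proteasome genes through antioxidant response elements, and NF-Y binds CCAAT boxes. The core TGACNNNGC, searched on both strands, was found in windows of 10 of the 33 genes (30.3%) and in those of 16.1% of all 27305 genes in the table. CCAAT, on both strands, was found for 17 of the 33 (51.5%) and for 39.7% of all genes. The members with a TGACNNNGC match had a median log2 ratio of -0.05 and those without one of -0.01 (10 and 22 genes with a value). With a CCAAT match the median was -0.01 and without one -0.06 (17 and 15 genes). The matches of the members at either end of the ratios are shown, each with the bases around it and TGACNNNGC or its reverse complement in capitals.
PSMA4, chr15:78540650-78540678, plus strand: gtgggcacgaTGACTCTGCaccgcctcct
PSMD9, chr12:121888631-121888659, plus strand: cgctactcctGCCGGGTCAccacaggcgc
PSMD9, chr12:121888678-121888706, plus strand: cggcttccggTGACCCAGCtccgccctaa
PSME4, chr2:53971009-53971037, minus strand: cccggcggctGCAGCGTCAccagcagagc
PSMC5, chr17:63827654-63827682, plus strand: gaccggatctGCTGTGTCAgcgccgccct
PSMC4, chr19:39971182-39971210, plus strand: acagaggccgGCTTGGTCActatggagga
The log2 ratios of these genes were -0.21 for PSMA4 and PSMD9, 0.12 for PSMC4, 0.11 for PSMC5 and 0.10 for PSME4. A match describes letters in the window and not a bound site.

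The transcription factors known to act on proteasome genes, and the proteins that process them, were measured too. Of 12 listed regulators, all were measured, their median was 0.03, none was at least 25% higher and 1 was at least 20% lower. Over all genes 9.17% were at least 25% higher and 11.9% at least 20% lower. At these shares a list of 12 would hold few such genes, so the counts say little about the regulators. NFE2L1, which drives new proteasome synthesis when the complex is inhibited, was at -0.02 over 4 probes (SD 0.11), and NFE2L2 at -0.12 over 2 (SD 0.05). The highest were MAFF, a partner of both, at 0.29 (849, 1002) and DDI2, the protease that activates NFE2L1, at 0.18 (221, 240). The lowest were FOXO4, known to act on PSMD11, at -0.77 on a dim X-linked probe (38.5, 21.7), and NFE2L2. The other FOXO4 probes were not well above background on either array. The MAFF probe lies in row 503 of the array and the FOXO4 probe used in row 504. Both rows are among those left out above as a check on the proteasome genes, and the regulators were not recomputed without them.

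Of all genes, 9.17% passed the upper limit and 11.9% the lower one. None of the 5 interferon-inducible genes left out by the rule passed either, and their median was -0.02. PSMB8 was highest at 0.20 (3160, 3496), while PSMB10 was at -0.02 (20668, 19691), PSME1 at -0.02 over 2 probes (SD 0.07), PSMB9 at -0.07 (9732, 8944) and PSME2 at -0.09 (58815, 53272). Of 14 associated proteins and assembly factors, 11 were measured, with a median of 0.03. None passed either limit, but at these shares lists so short would hold few such genes. The ubiquitin receptor ADRM1 was highest at 0.18 over 2 probes (SD 0.01), followed by KIAA0368, now ECPAS, at 0.08 (probes at -0.06 and 0.22). POMP, the chaperone that matures the core, was lowest at -0.29 (23878, 18833), and its gene lies on chromosome 13. The next, USP14, a deubiquitinase of the 19S particle, was at -0.11 with probes at -0.34 and 0.13.

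Upstream of the proteasome, 16 of 18 ubiquitin genes, activating enzymes and shuttle factors were measured, with a median of -0.04. SQSTM1, the autophagy receptor p62, was the 1 gene of the list at least 25% higher, at 0.42 (7554, 9760). Over all genes 9.17% were. None of the list was at least 20% lower, where 11.9% of all genes were. UBE1, now UBA1, the enzyme that starts most ubiquitination, was lowest at -0.31 over 2 probes (5562 to 4194 and 2347 to 1876), and it is X-linked. UBE1L2, now UBA6, followed at -0.20 (316 to 262 and 328 to 278). Of all proteasome and related genes measured, 4 lie on chromosome X or 13 (PSMD10, FOXO4, UBE1 and POMP). Of these, 2 were at least 20% lower, PSMD10 and FOXO4. Over all measured genes of these chromosomes, 62.7% on X and 48.3% on 13 were at least 20% lower.

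**Figure D5:**
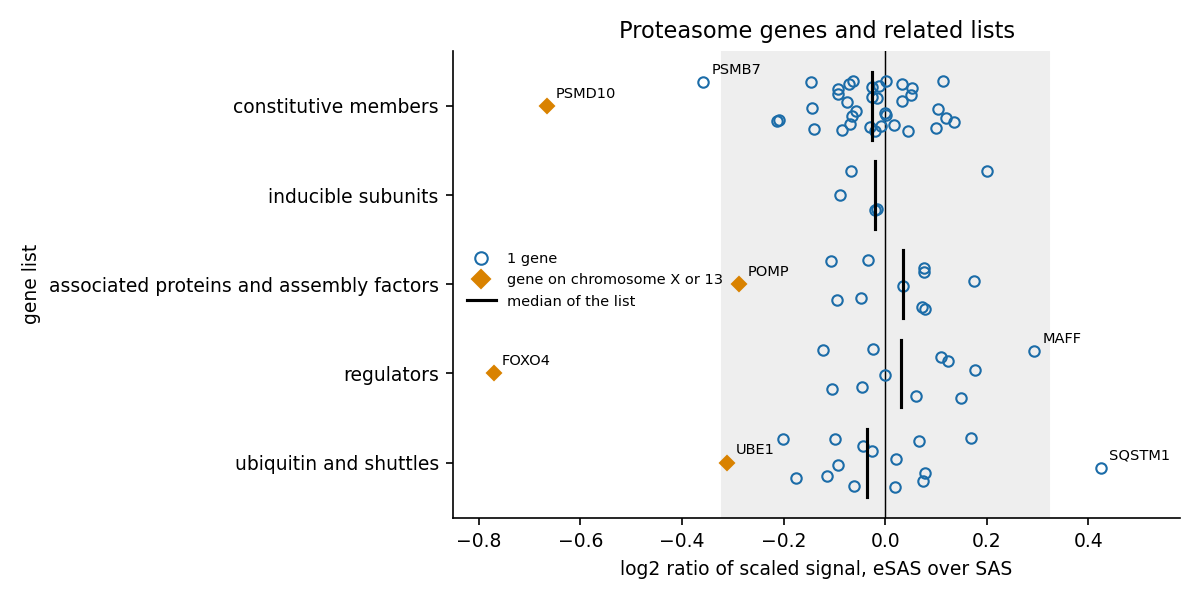
Log2 ratio, eSAS over SAS, of proteasome genes and of the genes of 4 related lists (circles; diamonds for genes on chromosome X or 13), with the median of each list (vertical line) and the band from 20% lower to 25% higher in grey. The diamonds are PSMD10 (-0.67), FOXO4 (-0.77), UBE1 (-0.31) and POMP (-0.29), and SQSTM1 is highest at 0.42.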

How the data were processed

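Total RNA of SAS and eSAS cells was labelled with Cy3 and hybridised to 1 array each. The authors deposited the scanner output of Agilent Feature Extraction 10.7.3.1 (named in the submitters' processing notes): linear intensity values, background-subtracted and detrended within each array, not scaled between arrays. The deposited series table held the same intensity for all 45015 spots of each array. From there, log2 of the processed signal minus each array's 75th percentile was taken over spots that are no controls. Marked spots and probes not well above background on both arrays were left out, replicate spots were averaged per probe and probes per gene. Names are those of the array; 54 of the 58 proteasome probes matched a RefSeq transcript, each of the same symbol. Probe positions are in hg18 and promoters in GRCh38.p14 of RefSeq.

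Members and gene lists were chosen with earlier results of these data known. Named were genes at least 25% higher or 20% lower, the 5 highest and 5 lowest, the catalytic subunits, members with dim, marked or disagreeing probes, and the 2 highest and 2 lowest of each list; every other member is given by its ratio, and the neighbours of PSMD10, the chromosomes and the probe strands were chosen after values were seen. A result for a single gene that meets this rule is not reported here, although counts include it. The alternatives were other scalings, background corrections (limma 3.58.1 in R 4.3.3), filters and probes. Python 3.11.15 was used. The calculation was tested on simulated data.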

Additional observations from a re-analysis of the deposited data

How the results depend on the processing

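With 1 array per condition, no value here has an error between cultures, and signal over background limits the dim probes of PSMB7, PSMD5 and PSMD9. No paired analysis was possible because each condition has 1 array. No member was 2-fold apart in either direction under any of the 17 alternatives. The median of the members was -0.03 and stayed within the SD of replicate spots under all but 1. That one is normexp background correction with an offset of 50, which gave a median of -0.55, with 3 members past the upper limit, 27 past the lower one and PSMB7 reversed to 0.39. It raised the 1st percentile of the eSAS array to 950, and once 25 spots with an uneven local background were dropped, that percentile was 57.2 and the median of the members was -0.02. The count of 2 members at least 20% lower became 1, PSMD10, under that restricted normexp fit, no background correction, median pixels, the brightest probe of each gene and no probes on the opposite strand. It became 3, with PSMD9 at -0.44, without rows 450 to 510. It became 1, PSMB7, relative to the own chromosome, and 0 with both that and no opposite-strand probes; the settings on chromosome and strand were added after the data were seen.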
